A study of Arabidopsis thaliana with 48 samples.

Results

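The 41 genes described here encode the proteins that capture light in Arabidopsis thaliana chloroplasts and the nuclear-encoded subunits of both photosystems. They were taken as the rows of the count table with the listed locus identifiers, and all 41 were present among the 27420 genes of the table. By role they were 6 antenna genes of photosystem I (LHCA1 to LHCA6), 14 antenna genes of photosystem II (LHCB1 to LHCB6 with their copies), 10 genes of the core of photosystem I (PSAE1 to PSAO), 5 genes of the oxygen-evolving proteins (PSBO, PSBP and PSBQ) and 6 other genes of photosystem II. All 41 passed the filter on low counts, which kept 17981 genes.

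Nuclear RNA and cytoplasmic RNA were sequenced separately from rosettes of plants aged 14 d, of Col-0, the wild type, and of tho5ab, a double mutant in both genes for subunit 5 of the THO complex. THO joins mRNA while it is made and takes part in its export from the nucleus, and the study asked how export differs in the mutant under heat. Plants stayed at 21 °C or were given 3 h of 37 °C and taken without recovery. Genotype, fraction and temperature gave 8 groups of 6 libraries each. The groups were Col-0 cytoplasm at 21 °C, Col-0 cytoplasm at 37 °C, Col-0 nuclei at 21 °C, Col-0 nuclei at 37 °C and the same 4 of tho5ab. Fractions came from whole rosettes by differential centrifugation, so each library is a mixture of all cell types of the rosette. The labels do not say whether replicates came from separate plants or cultures, so the p-values below measure only the spread between these libraries, which may be technical.

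Light-harvesting proteins bind chlorophyll and carotenoids in the thylakoid membrane and pass excitation energy to the reaction centres of photosystem I and photosystem II. The genes for antenna proteins and for many small subunits lie in the nucleus, so their mRNA must be exported and translated in the cytosol before the proteins are imported into the chloroplast. In green leaves these mRNAs are among the most abundant of the cell, and their synthesis depends on light, the clock and the state of the chloroplast.

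Values are counts scaled to the library size (CPM), scaled with edgeR's TMM factors over all 48 libraries, and are given as the lowest and the highest of the 6 libraries of a group with their median. Fold changes are log2 values with a standard error, from edgeR's quasi-likelihood fit over all 48 libraries, and a gene is said to have risen, fallen or changed where its Benjamini-Hochberg adjusted p over all tested genes was under 0.05. Cytoplasmic libraries held 1025185 to 2174279 counts and nuclear libraries 2601946 to 19914838. No member was at 0 in any library; the lowest, LHCB4.3, had between 99 and 452 counts over the 6 libraries of a group.

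Some libraries stood apart before any comparison was made. In 16 of the 48 libraries, 1 to 3 in each group, counts of genes that lie inside another gene, on its other strand, were far higher than in the remaining 32. The mutated gene THO5B had 0 counts in all 12 tho5ab cytoplasmic libraries and 0.0629 to 3.01 CPM in tho5ab nuclei at 21 °C, against 5.17 to 6.79 CPM in Col-0 nuclei. THO5A did not mark the mutant in the same way, since tho5ab nuclei at 21 °C held 76.3 to 118 CPM and Col-0 nuclei 30.8 to 37.6 CPM. At 37 °C tho5ab nuclei held 15.6 to 118 CPM of THO5A, with replicate 7 highest, against 175 to 205 CPM in Col-0 nuclei. The tho5ab cytoplasmic library of replicate 7 at 37 °C also had the lowest share of counts on the 41 genes in its group, at 5.77%.

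The 41 genes took a large share of the cytoplasmic RNA and a small share of the nuclear RNA, and heat moved these shares in different directions. In Col-0 cytoplasm they held 15.1 to 23.9% of all counts at 21 °C and 8.39 to 10.2% at 37 °C, so that no library of one temperature reached those of the other. In Col-0 nuclei the share was 0.813 to 1.08% at 21 °C and 1.16 to 1.38% at 37 °C, again without overlap and in the other direction. In tho5ab cytoplasm the share was 15.2 to 21.8% at 21 °C and 5.77 to 10.3% at 37 °C. In tho5ab nuclei the share was 0.533 to 0.867% at 21 °C and 0.709 to 0.867% at 37 °C, with overlap. The rise in Col-0 nuclei lay mostly in the antenna genes, whose share had a mean of 0.550% at 21 °C and 0.841% at 37 °C, while the other subunits had 0.391% and 0.429%. In tho5ab nuclei the antenna share went from 0.371% to 0.522% and that of the other subunits from 0.339% to 0.273%. In bulk samples like these, fewer cells of a type and less RNA per cell cannot be told apart, and this holds for every result below.

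**Figure D1:**
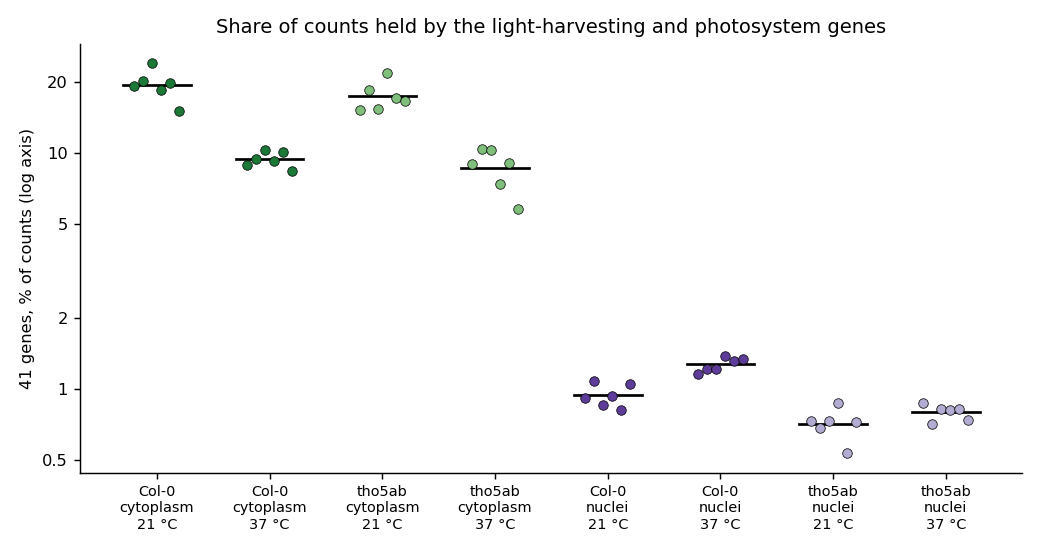
Percent of all counts of a library that fell on the 41 genes, on a log axis, with 1 point per library and a line at the mean of each group of 6. Col-0 cytoplasm goes from 15.1 to 23.9% down to 8.39 to 10.2% at 37 °C, while Col-0 nuclei go from 0.813 to 1.08% up to 1.16 to 1.38%.

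Per kilobase of exon, the order of the levels in Col-0 cytoplasm at 21 °C was led by LHCB1.3, the LHCB1 copy also known as CAB1, at 57085 ± 17853 CPM per kb (SD, n = 6). LHCB1.5 followed at 35999 ± 9003, then LHCA2 at 12815 ± 2758 and PSBR at 11515 ± 1195 CPM per kb, where the last pair did not differ beyond their spread. At the other end were LHCA5 at 72.7 ± 16.4 and LHCA6 at 68.9 ± 10.7 CPM per kb, which also lay within each other's spread, and LHCB4.3 at 15.1 ± 8.26 CPM per kb. In Col-0 nuclei at 21 °C, LHCB1.3 and LHCB1.5 had almost the same level, 525 ± 74.5 and 522 ± 90.6 CPM per kb, PSBR had 244 ± 14.6 and LHCB4.3 had 2.65 ± 0.325. Every member was lower in nuclei than in cytoplasm in Col-0 at 21 °C (41 of 41, median log2 -5.24; 28% of all tested genes were lower). The difference ran from -1.51 ± 0.19 for LHCA5 to -6.77 ± 0.24 for LHCB1.3. At 37 °C, 40 of 41 were lower in Col-0 nuclei (median -4.40; background 28.9%), and LHCA5, at -0.19 ± 0.19 (edgeR adjusted p = 0.39), did not pass. In tho5ab all 41 were lower in nuclei at 21 °C (median -5.47, background 27.4%) and at 37 °C (median -4.81, background 26.9%). The size of these differences depended on scaling. Library totals moved the median of all genes by 1.335 and 1.347 in Col-0 at 21 and 37 °C. In tho5ab they moved it by 1.19 and 1.355. The smallest differences, as that of LHCA5, are therefore not secure in size or direction.

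In Col-0, heat lowered most of the genes in the cytoplasm and raised 20 of them in the nuclei. In the cytoplasm 28 of 41 fell and 1 rose, with a median log2 change of -0.64, where 19.7% of all tested genes fell and 24.7% rose with a median of 0.068. In the nuclei these 20 rose and 2 fell, with a median of 0.31, where 21.9% of all tested genes rose and 23.8% fell with a median of -0.062. With library totals in place of TMM the nuclear split was 16 higher and 5 lower. Most of the nuclear rises were of antenna genes, of which 14 of 20 rose and 2 fell (median 0.63), against 6 of the 21 other genes with none falling (median 0.19). In the cytoplasm 16 of the 20 antenna genes fell and 12 of the 21 others.

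Of the 41 genes, 14 fell in Col-0 cytoplasm and rose in Col-0 nuclei, against 1.04% of all tested genes, and 0 did the reverse, against 0.667%. Fitted on the groups compared alone the 14 became 23, and with 1 replicate number left out they ran from 10 without replicate 1 to 20 without replicate 7. These 14 were LHCA1, LHCA4, LHCB1.1, LHCB1.2, LHCB1.5, LHCB2.1, LHCB3, LHCB4.1, LHCB4.2, LHCB5, LHCB6, PSAE2, PSBP1 and PSBQ2. A further 13 fell in the cytoplasm with no call in the nuclei, and 5 (LHCA3, LHCB1.4, LHCB2.2, PSAE1 and PSAH2) rose in the nuclei with no call in the cytoplasm. LHCA6 fell in both fractions, PSBR rose in both, LHCB4.3 fell in the nuclei alone, and PSAH1, PSAL, PSBO2, PSBQ1, PSBW and PSBY were called in neither. The difference between the heat changes of the fractions was tested as a term of its own, nuclei minus cytoplasm. In Col-0 it was positive for 28 of 41 and negative for 1 (median 1.04; background 7.37% positive and 8.64% negative, with a median of -0.12 over all genes). It was positive for 18 of the 20 antenna genes (median 1.52) and for 10 of the 21 others (median 0.61).

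Of the tho5ab nuclear rises 13 were among the 20 antenna genes and 7 among the 21 others. In tho5ab cytoplasm 17 fell and 4 rose (median -0.28), where 20% of all tested genes fell and 22.2% rose (median -0.0077), and in tho5ab nuclei 20 rose and 6 fell (median 0.36), where 25.1% rose and 27.1% fell (median -0.069). These splits depended on scaling. With DESeq2's size factors they were 2 higher and 23 lower in the cytoplasm and 14 higher and 8 lower in the nuclei. With library totals they were 0 higher and 36 lower, and 11 higher and 12 lower with a median just below 0. Library totals moved the median of all genes by -0.55 in tho5ab cytoplasm, -0.38 in tho5ab nuclei and -0.15 in both fractions of Col-0. Relative to the median of all genes the members' median in tho5ab nuclei was 0.43 under all 3 scalings. Scaling moves all genes of a comparison almost alike, so this value could hardly change and is no check of the splits. With both replicate 7 libraries of heated tho5ab left out, 4 rose and 13 fell in tho5ab cytoplasm and 21 rose and 6 fell in the nuclei. Without replicate 5, 5 rose and 11 fell in tho5ab cytoplasm, and without replicate 2, 2 rose and 18 fell. In tho5ab, 8 members fell in the cytoplasm and rose in the nuclei (background 1.12%), namely LHCA1, LHCA4, LHCB1.2, LHCB3, LHCB5, PSAK, PSBP1 and PSBQ2, and 0 did the reverse (background 0.684%). That count was 5 without replicate 5 and 5 without replicate 6. Between the genotypes 7 genes were shared, LHCA1, LHCA4, LHCB1.2, LHCB3, LHCB5, PSBP1 and PSBQ2, and 72 of all tested genes did the same in both genotypes. The fraction difference was positive for 22 and negative for 1 in tho5ab (median 0.75; background 8.97% and 8.07%, with a median of -0.039). The antenna genes had a median of 1.26 there, with 15 of 20 positive, and the others -0.0082, with 7 of 21 positive.

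The summed levels of markers of other cell types were lower in heated nuclei for some lists, while few single markers passed the test. In Col-0 nuclei 1 of 4 phloem markers rose and 2 fell, 1 of 3 tested guard cell markers and 1 of 2 tested shoot meristem markers fell, and 0 of 4 epidermis and 0 of 4 tested root markers passed. The 4 phloem markers, all detected, summed to 115 to 182 CPM in Col-0 nuclei at 21 °C and 88.0 to 112 CPM at 37 °C, and to 103 to 113 and 73.1 to 89.9 CPM in tho5ab nuclei. The 4 guard cell markers, all detected, summed to 117 to 172 CPM in Col-0 nuclei at 21 °C and 67.8 to 119 CPM at 37 °C. The 4 epidermis markers overlapped between temperatures in Col-0 nuclei, at 380 to 456 and 358 to 425 CPM. The 5 root markers went from 51.9 to 76.3 CPM to 30.1 to 59.2 CPM there, and of the 4 shoot meristem markers, at 13.0 to 24.3 and 6.89 to 13.7 CPM, CLV3 was at 0 at 37 °C. The part of cell mixture in the heat changes was not tested.

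**Figure D2:**
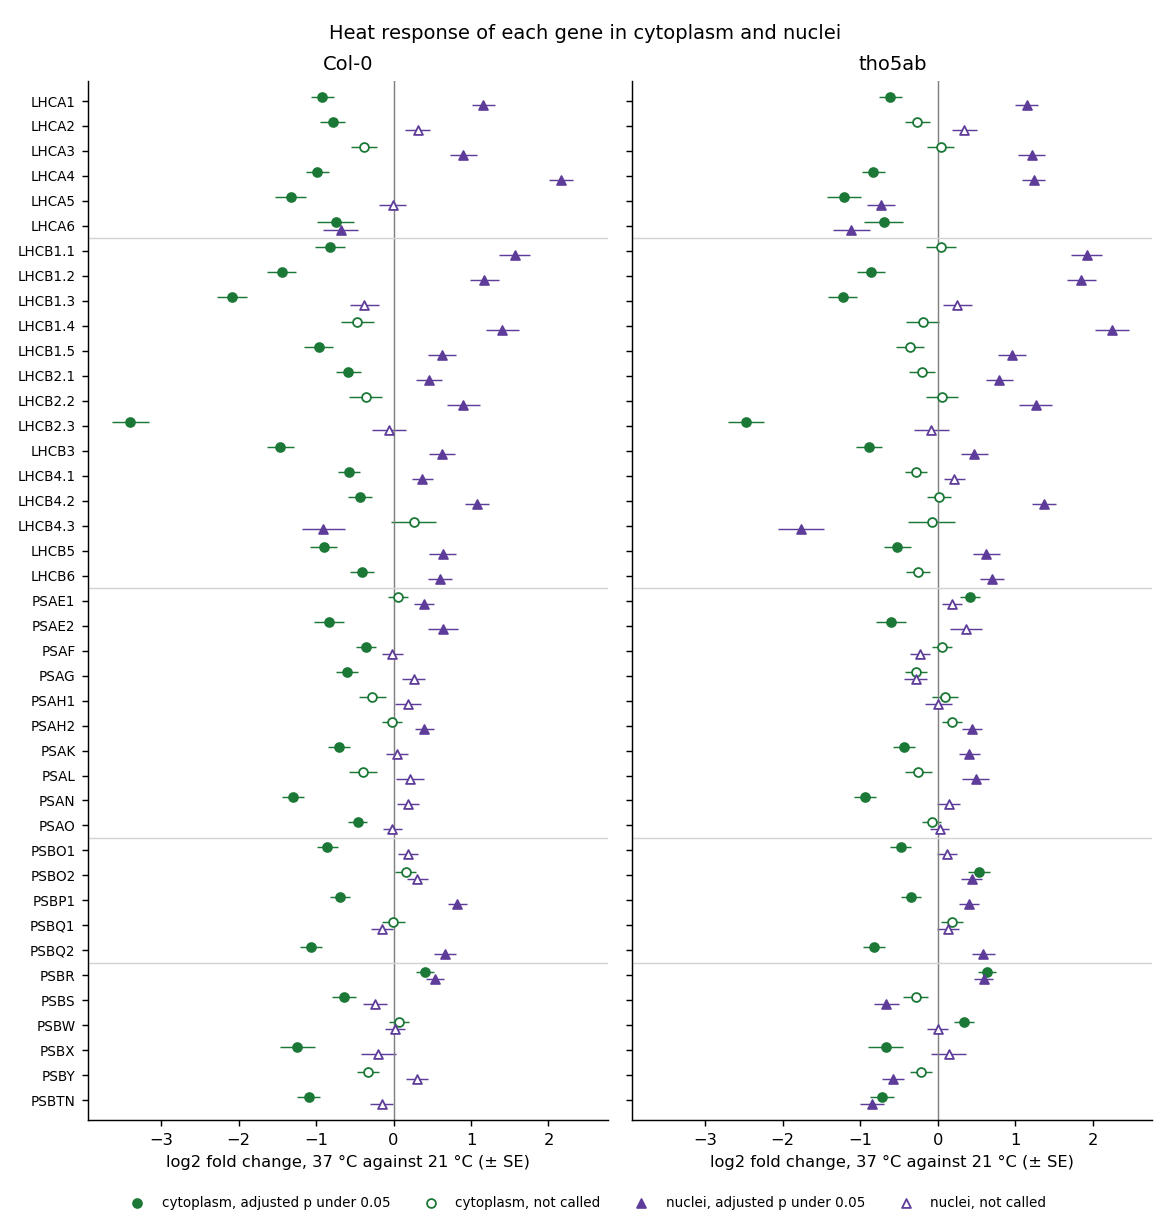
Log2 heat change (37 °C against 21 °C) with its standard error for each of the 41 genes, grouped by role from the photosystem I antenna at the top to the other photosystem II genes at the bottom, with circles for cytoplasm and triangles for nuclei, filled where the adjusted p was under 0.05, and 1 panel per genotype. In Col-0 most antenna genes have the circle left of 0 and the triangle right of it, as LHCA4 at -0.98 and 2.16, while LHCB2.3 has its circle far to the left at -3.40 and LHCB4.3 its triangle on the left at -0.91.

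LHCA4 (AT3G47470, chr3:17493343-17495033 on the minus strand, with 3 introns), which pairs with LHCA1 in the photosystem I antenna and carries its most red-shifted chlorophylls, had the largest nuclear rise of the 41 in Col-0. In Col-0 cytoplasm it had 4385 to 7072 CPM (median 6111) at 21 °C and 2479 to 3569 CPM (median 2928) at 37 °C. In Col-0 nuclei it had 195 to 265 CPM (median 229) at 21 °C and 836 to 1268 CPM (median 1013) at 37 °C. The temperatures did not overlap in either fraction, and all 6 heated libraries were below the others in cytoplasm and above them in nuclei. The change was -0.98 ± 0.15 (edgeR adjusted p = 2.3e-07) in cytoplasm and 2.16 ± 0.15 (edgeR adjusted p = 2.8e-17) in nuclei, a 4.48-fold rise, and the fractions differed by 3.14 ± 0.21 (edgeR adjusted p = 2.5e-16). In tho5ab cytoplasm LHCA4 had 4054 to 5798 CPM (median 4777) at 21 °C and 1446 to 3607 CPM (median 2936) at 37 °C, and in tho5ab nuclei 115 to 172 CPM (median 134) and 289.5 to 387 CPM (median 322). The same directions held without overlap, at -0.83 ± 0.15 (edgeR adjusted p = 7.5e-06) and 1.24 ± 0.15 (edgeR adjusted p = 6.1e-10). Its call in each of these 4 heat comparisons held under every alternative run. LHCA4 shares 53 bases with AT3G47460 on the other strand and is uncertain, since the strand setting of the counting is not given in the sources used here, but that neighbour had means of 18.1 and 6.84 CPM in Col-0 nuclei at 21 and 37 °C.

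LHCA1 (AT3G54890, chr3:20339504-20341176 on the minus strand), the partner of LHCA4, moved in the same directions. In Col-0 cytoplasm it had 6579 to 10907 CPM (median 9927) at 21 °C and 3917 to 5854 CPM (median 4911) at 37 °C. In Col-0 nuclei it had 189.7 to 235 CPM (median 202) and 378 to 527 CPM (median 466.3). Neither pair of ranges overlapped, and the changes were -0.92 ± 0.15 (edgeR adjusted p = 1.2e-06) and 1.16 ± 0.15 (edgeR adjusted p = 7.9e-09). In tho5ab it had 7608 to 14345 CPM (median 10016) and 3744 to 8915 CPM (median 7146) in cytoplasm, which overlapped, and 134 to 186 CPM (median 167) and 325 to 419 CPM (median 357) in nuclei, which did not. LHCA6 (AT1G19150, chr1:6612630-6613972 on the plus strand), a scarce protein that links photosystem I to the NDH complex together with LHCA5, did not take part in the nuclear rise. It had 67.3 to 101 CPM (median 77.7) and 22.9 to 67.3 CPM (median 47.7) in Col-0 cytoplasm at 21 and 37 °C, and 14.2 to 19.1 CPM (median 15.04) and 8.77 to 11.6 CPM (median 9.69) in Col-0 nuclei. The cytoplasmic ranges overlapped and the nuclear ones did not, with all heated nuclear libraries below the others. The changes were -0.75 ± 0.24 (edgeR adjusted p = 0.0100) in cytoplasm and -0.68 ± 0.23 (edgeR adjusted p = 0.012) in nuclei, and the fractions differed by 0.068 ± 0.33 (edgeR adjusted p = 0.93). The cytoplasmic fall of LHCA6 lost its call without replicate 2 (-0.60, adjusted p = 0.066 by edgeR) and without replicate 3 (-0.62, adjusted p = 0.0629 by edgeR). In tho5ab LHCA6 had 40.6 to 77.3 CPM (median 60.5) and 11.8 to 64.5 CPM (median 35.9) in cytoplasm and 6.47 to 16.5 CPM (median 10.3) and 3.71 to 6.51 CPM (median 4.99) in nuclei, where the ranges overlapped in both fractions and it fell by 1.11 ± 0.23 in nuclei. Its fall in tho5ab cytoplasm lost its call under 5 alternatives, at -0.64 in the 32 libraries alone, at -0.44, -0.65 and -0.52 without replicates 5, 6 and 7 and at -0.55 without both replicate 7 libraries of heated tho5ab (adjusted p = 0.0821, 0.162, 0.0595, 0.135 and 0.0804 by edgeR). LHCA5 fell in the cytoplasm of Col-0 (-1.33 ± 0.20) and of tho5ab (-1.20 ± 0.22) and in the nuclei of tho5ab (-0.73 ± 0.18), with -0.0094 ± 0.18 in Col-0 nuclei. LHCA5 is uncertain, as it overlaps AT1G45545 on the other strand by 192 bases. That neighbour had means of 16.4 and 4.8 CPM in tho5ab nuclei at 21 and 37 °C and also fell there. The part of its reads in LHCA5 was not tested. LHCA2 fell in Col-0 cytoplasm by 0.79 ± 0.16 and LHCA3 rose in the nuclei of both genotypes, by 0.90 ± 0.17 and 1.21 ± 0.17.

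The 5 LHCB1 genes encode the main protein of the light-harvesting trimers of photosystem II. They lie in 2 clusters, LHCB1.1 to LHCB1.3 on chromosome 1 and LHCB1.4 and LHCB1.5 on chromosome 2, have no introns, and are uncertain because they share 50-base stretches. How alike they are is seen in the longest stretch that LHCB1.1 (also known as CAB2) and LHCB1.3 share, 119 bases of the coding sequence, at chr1:10475372-10475490 on the minus strand in LHCB1.1 (TAIR10.1, from RefSeq), where a read cannot be placed with either gene:
LHCB1.1 and LHCB1.3: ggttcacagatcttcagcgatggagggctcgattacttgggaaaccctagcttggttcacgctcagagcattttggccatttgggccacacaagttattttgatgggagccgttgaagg
The coding sequences of these genes, 804 bases each, are 96.1% identical, and LHCB1.4 and LHCB1.5 share a run of 122 bases. Within the clusters, how reads with several positions were counted is not given in the sources used here.

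The values of the LHCB1 copies under heat ran from falls to rises. LHCB1.3 (AT1G29930, chr1:10477885-10479114 on the plus strand) had 41747 to 108469 CPM (median 66624) in Col-0 cytoplasm at 21 °C and 13658 to 19885 CPM (median 16720.1) at 37 °C. In Col-0 nuclei it had 542 to 762 CPM (median 618) and 439 to 525 CPM (median 506). The heated libraries were lower without overlap in both fractions, yet only the cytoplasmic fall passed the test, at -2.09 ± 0.19 (edgeR adjusted p = 6.7e-13) or 4.25-fold, against -0.37 ± 0.19 (edgeR adjusted p = 0.097) in nuclei. The tho5ab libraries had 42799 to 85710.0 CPM (median 50646) and 9974 to 34256 CPM (median 25812) in cytoplasm, without overlap, and 360.1 to 682 CPM (median 591) and 538 to 823 CPM (median 639.7) in nuclei, with overlap, for changes of -1.23 ± 0.19 (edgeR adjusted p = 6.1e-07) and 0.25 ± 0.19 (edgeR adjusted p = 0.26). LHCB1.2 (AT1G29910, chr1:10472280-10473502 on the minus strand, also known as CAB3) went in opposite directions in the fractions. It had 5803 to 13175 CPM (median 9742) and 2924 to 4385 CPM (median 3473) in Col-0 cytoplasm, and 81.6 to 122 CPM (median 99.6) and 188 to 284 CPM (median 220.1) in Col-0 nuclei. No range overlapped, and the changes were -1.45 ± 0.19 (edgeR adjusted p = 1.0e-08) and 1.17 ± 0.19 (edgeR adjusted p = 1.0e-06). In tho5ab it had 6225 to 13082 CPM (median 8567) and 2467 to 6727 CPM (median 5213) in cytoplasm, which overlapped, and 45.5 to 100.4 CPM (median 70.7) and 204 to 298 CPM (median 260.1) in nuclei, which did not. The nuclear rise of tho5ab was 1.86 ± 0.19 (edgeR adjusted p = 1.1e-11). The other copies rose in nuclei too: LHCB1.1 by 1.57 ± 0.20 in Col-0 and 1.93 ± 0.20 in tho5ab, LHCB1.4 by 1.402 ± 0.21 and 2.25 ± 0.22, and LHCB1.5 by 0.63 ± 0.18 and 0.96 ± 0.18.

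LHCB1.3 made up less of the LHCB1 counts at 37 °C in both fractions and both genotypes. As a percent of the counts of the 5 genes, LHCB1.3 had 55.6 ± 2.0 (SD, n = 6) in Col-0 cytoplasm at 21 °C and 37.0 ± 1.71 at 37 °C. In Col-0 nuclei it had 46.0 ± 1.19 and 26.4 ± 1.83, with libraries at 44.6 to 47.4 and 23.7 to 28.9. The tho5ab libraries had 51.6 ± 1.89 and 37.0 ± 1.82 in cytoplasm, and 48.2 ± 3.17 and 30.5 ± 2.28 in nuclei. In each of the 4 comparisons every heated library was below every library at 21 °C. LHCB1.1 made up more of them, from 4.91 ± 0.608% to 10.7 ± 0.336% in Col-0 nuclei and from 7.53 ± 1.01% to 15 ± 0.790% in tho5ab nuclei. These shares are described without a test, and their precision is also limited by the shared stretches.

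**Figure D3:**
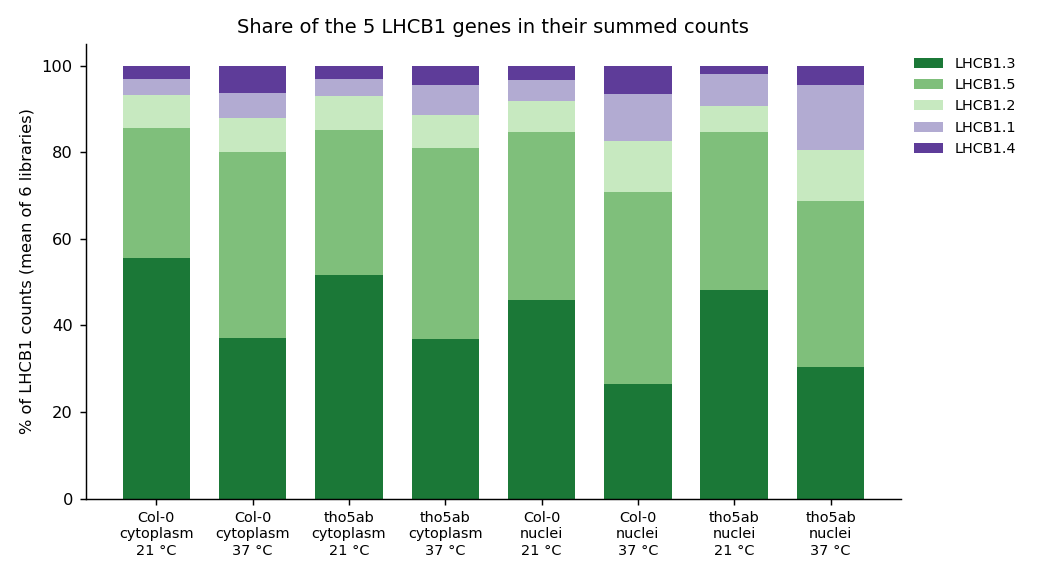
Stacked bars of the mean percent of the LHCB1 counts that fell on each of the 5 copies, 1 bar for each of the 8 groups of 6 libraries; the bars carry no error, which the text gives. The LHCB1.3 part at the foot of the bars goes from 55.6 to 37.0% in Col-0 cytoplasm and from 46.0 to 26.4% in Col-0 nuclei, while LHCB1.1 goes from 4.91 to 10.7% in Col-0 nuclei.

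LHCB2 proteins form trimers with LHCB1 and are phosphorylated when energy is shared out anew between the photosystems. LHCB2.3 (AT3G27690, chr3:10255906-10257489 on the plus strand) had the largest cytoplasmic fall of the 41 genes in both genotypes. It had 449 to 1368 CPM (median 917) in Col-0 cytoplasm at 21 °C and 60.1 to 128 CPM (median 76.8) at 37 °C. In Col-0 nuclei it had 14.4 to 33.1 CPM (median 21) and 17.03 to 25.04 CPM (median 22.1). The cytoplasmic ranges stood far apart and the nuclear ones overlapped. The changes were -3.40 ± 0.24 (edgeR adjusted p = 4.4e-17) in cytoplasm, a 10.5-fold fall, and -0.056 ± 0.22 (edgeR adjusted p = 0.86) in nuclei, and the fractions differed by 3.34 ± 0.32 (edgeR adjusted p = 2.6e-11). In tho5ab it had 337 to 855 CPM (median 445) and 55.02 to 136 CPM (median 93.8) in cytoplasm and 9.16 to 13.4 CPM (median 11.2) and 7.87 to 14.4 CPM (median 10.8) in nuclei. The pattern was the same there, at -2.47 ± 0.24 (edgeR adjusted p = 1.4e-12) and -0.083 ± 0.22 (edgeR adjusted p = 0.78). LHCB2.3 shares 595 bases with AT3G27700 on the other strand, which had means of 131 and 46.7 CPM in Col-0 cytoplasm and also fell, and the part of its reads in LHCB2.3 was not tested. Among the LHCB2 counts LHCB2.3 went from 10.9 ± 1.09% to 1.61 ± 0.409% in Col-0 cytoplasm. The near-identical LHCB2.1 and LHCB2.2, whose reads cannot be fully told apart, were at -0.58 ± 0.17, a fall, and -0.36 ± 0.21, short of the test, there, and rose by 0.46 ± 0.17 and 0.90 ± 0.21 in Col-0 nuclei.

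LHCB4.3 (AT2G40100, chr2:16745628-16747424 on the plus strand), a scarce form of a monomeric linker antenna that is also known as LHCB8, had its only heat calls within a fraction in the nuclei, where it fell. It had 11.1 to 37.7 CPM (median 17.3) in Col-0 cytoplasm at 21 °C and 13.01 to 34.9 CPM (median 29.9) at 37 °C. In Col-0 nuclei it had 3.03 to 4.25 CPM (median 4.02) and 1.14 to 2.61 CPM (median 2.08). The cytoplasmic ranges overlapped, and in nuclei all heated libraries were lower. The changes were 0.26 ± 0.29 (edgeR adjusted p = 0.49) in cytoplasm and -0.91 ± 0.28 (edgeR adjusted p = 0.0059) in nuclei, and the fractions differed by -1.17 ± 0.40 (edgeR adjusted p = 0.037). This last call was lost under 10 of the alternatives, as in the 32 libraries without high opposite-strand counts (-0.99, adjusted p = 0.219 by edgeR), where the nuclear fall in Col-0 was -0.65 (adjusted p = 0.106 by edgeR). In tho5ab LHCB4.3 had 13.9 to 29.5 CPM (median 18.5) and 14.01 to 22.7 CPM (median 19.1) in cytoplasm and 1.76 to 4.16 CPM (median 3.45) and 0.576 to 1.28 CPM (median 0.941) in nuclei. There too the ranges overlapped in cytoplasm and not in nuclei, the nuclear fall was -1.76 ± 0.29 (edgeR adjusted p = 1.5e-06) and the fractions differed by -1.69 ± 0.42 (edgeR adjusted p = 0.0030). Its relatives LHCB4.1 and LHCB4.2, the abundant forms, rose in Col-0 nuclei by 0.37 ± 0.14 and 1.07 ± 0.16. The single-copy antenna genes LHCB3, LHCB5 and LHCB6 fell in Col-0 cytoplasm by 1.46 ± 0.17, 0.90 ± 0.17 and 0.40 ± 0.15 on the log2 scale, and rose in Col-0 nuclei by 0.63 ± 0.17, 0.63 ± 0.17 and 0.60 ± 0.15.

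**Figure D4:**
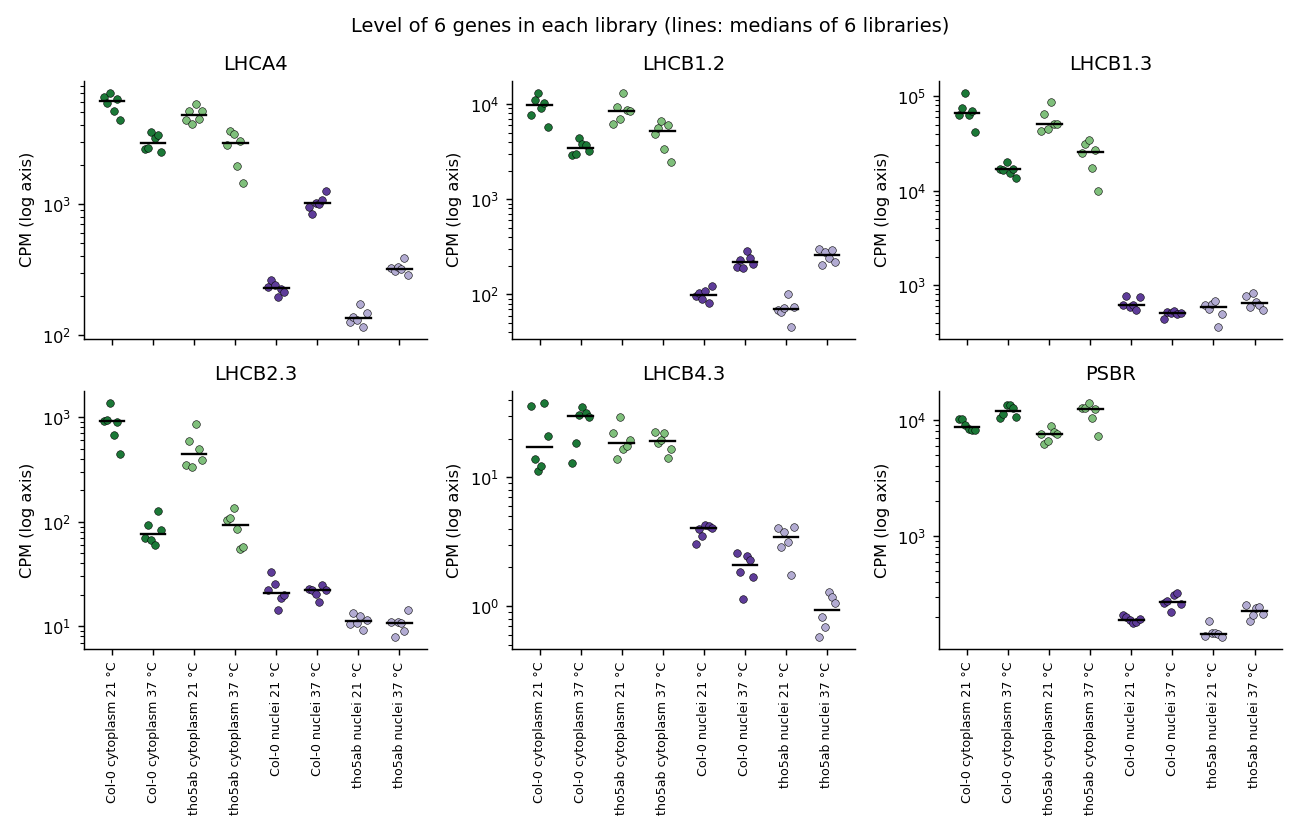
CPM on a log axis of LHCA4, LHCB1.2, LHCB1.3, LHCB2.3, LHCB4.3 and PSBR, 1 panel per gene, with 1 point per library in each of the 8 groups and a line at the median. LHCA4 and LHCB1.2 go down in cytoplasm and up in nuclei, LHCB1.3 and LHCB2.3 go down in cytoplasm, LHCB4.3 goes down in nuclei and PSBR goes up in both.

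The 250 bases before the annotated start of these genes show how their upstream regions differ. They are printed for the genes with the most distinct heat changes, LHCA4 with opposite changes, LHCB2.3 and LHCB1.3 with the largest cytoplasmic falls, LHCB4.3 with a nuclear fall and PSBR with rises in both fractions. Sequences are from RefSeq's TAIR10.1, 5′ to 3′ on the strand of the gene, and capitals mark the CCAAT box (CCAAT or, on the other strand, ATTGG) and the G-box (CACGTG), each searched on both strands.
LHCA4, chr3:17495034-17495283, minus strand: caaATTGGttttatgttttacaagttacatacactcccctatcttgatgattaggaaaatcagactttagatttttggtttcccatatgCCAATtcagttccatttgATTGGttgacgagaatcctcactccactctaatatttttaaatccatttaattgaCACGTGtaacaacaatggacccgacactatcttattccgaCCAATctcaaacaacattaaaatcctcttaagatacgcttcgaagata
LHCB2.3, chr3:10255656-10255905, plus strand: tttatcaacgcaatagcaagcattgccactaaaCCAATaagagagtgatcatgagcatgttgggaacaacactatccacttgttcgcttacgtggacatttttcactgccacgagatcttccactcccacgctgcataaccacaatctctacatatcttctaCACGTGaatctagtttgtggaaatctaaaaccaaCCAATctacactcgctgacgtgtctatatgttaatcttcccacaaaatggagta
LHCB1.3, chr1:10477635-10477884, plus strand: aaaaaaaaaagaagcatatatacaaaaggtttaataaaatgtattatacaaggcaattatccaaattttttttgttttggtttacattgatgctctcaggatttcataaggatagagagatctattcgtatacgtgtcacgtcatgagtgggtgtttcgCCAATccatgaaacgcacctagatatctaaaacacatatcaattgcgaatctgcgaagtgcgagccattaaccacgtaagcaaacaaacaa
LHCB4.3, chr2:16745378-16745627, plus strand: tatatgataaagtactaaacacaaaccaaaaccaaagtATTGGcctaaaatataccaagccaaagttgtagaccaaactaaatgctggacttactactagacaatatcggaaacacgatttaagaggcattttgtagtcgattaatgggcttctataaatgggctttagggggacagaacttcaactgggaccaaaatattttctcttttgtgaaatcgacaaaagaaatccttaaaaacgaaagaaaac
PSBR, chr1:29735702-29735951, plus strand: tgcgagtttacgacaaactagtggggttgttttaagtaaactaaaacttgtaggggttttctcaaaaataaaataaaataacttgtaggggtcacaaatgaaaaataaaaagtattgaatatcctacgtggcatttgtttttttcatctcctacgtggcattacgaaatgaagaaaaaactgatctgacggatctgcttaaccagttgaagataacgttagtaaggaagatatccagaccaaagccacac
LHCA4 holds 4 CCAAT boxes and 1 G-box, LHCB2.3 holds 2 and 1, LHCB1.3 and LHCB4.3 hold 1 CCAAT box each, and PSBR holds none of either. A CCAAT box was found in 18 of the 20 antenna windows (90%), in 7 of the 21 others (33.3%) and in 47.9% of the 17980 windows of tested genes. The G-box was found in 9 of the 41 (22.0%) and in 7.48% of tested genes, GATAAG, the I-box, in 8 (19.5%) and 12.2%, and TATAAA in 19 (46.3%) and 45.7%. GAANNTTC, the core of the element bound by heat shock factors, was found in LHCB5 alone (2.44% of members; 9.36% of tested genes), and AAATATCT, the evening element, in LHCA5 alone (5.08% of tested genes). All of these patterns were searched on both strands, so a match, also of TATAAA, may lie on either. Some of the windows run into a neighbouring gene, as that of LHCB5 into AT4G10330. A match is a description of these letters in this window, not a site that is known to be bound.

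In the core of photosystem I, 6 of 10 genes fell in Col-0 cytoplasm and 3 rose in Col-0 nuclei. PSAN (AT5G64040, chr5:25628521-25629708 on the minus strand), a protein on the lumen side where plastocyanin docks, had 1279.5 to 1764 CPM (median 1523) and 502 to 780.4 CPM (median 613) in Col-0 cytoplasm at 21 and 37 °C, without overlap. In Col-0 nuclei it had 32 to 40.7 CPM (median 35.2) and 33.1 to 45.9 CPM (median 42.5), with overlap. The changes were -1.30 ± 0.14 (edgeR adjusted p = 1.3e-10) and 0.18 ± 0.14 (edgeR adjusted p = 0.31), and the fractions differed by 1.48 ± 0.20 (edgeR adjusted p = 2.5e-07). The tho5ab libraries had 750.5 to 1065 CPM (median 926) and 311 to 566 CPM (median 523) in cytoplasm and 12.9 to 20.4 CPM (median 16.4) and 12.5 to 20.9 CPM (median 19.5) in nuclei, and the same held, with -0.94 ± 0.14 and 0.14 ± 0.15. The pair PSAE1 and PSAE2, copies of a stromal subunit that helps ferredoxin to bind, had different calls. PSAE2 (AT2G20260, chr2:8736734-8737767 on the plus strand) had 1221 to 2292 CPM (median 1669) and 706 to 1126 CPM (median 999) in Col-0 cytoplasm and 17.7 to 33.1 CPM (median 21.5) and 29.9 to 47.8 CPM (median 34.4) in Col-0 nuclei. Its cytoplasmic ranges did not overlap and its nuclear ranges did, with changes of -0.83 ± 0.20 (edgeR adjusted p = 4.6e-04) and 0.64 ± 0.20 (edgeR adjusted p = 0.0064). In tho5ab PSAE2 had 882 to 1859.7 CPM (median 1128) and 375 to 1152 CPM (median 745) in cytoplasm, where its fall of 0.60 ± 0.20 lost its call without replicate 5 (-0.37, adjusted p = 0.154 by edgeR) and without both replicate 7 libraries of heated tho5ab (-0.45, adjusted p = 0.0507 by edgeR), and 6.63 to 15.9 CPM (median 10.6) and 9.28 to 15.6 CPM (median 14.9) in nuclei, with overlap in both fractions. PSAE1 (AT4G28750, chr4:14202758-14204061 on the minus strand) had 2726 to 3384 CPM (median 2970.2) and 2736 to 3415 CPM (median 3105) in Col-0 cytoplasm and 72.4 to 109 CPM (median 89.1) and 103 to 148 CPM (median 113) in Col-0 nuclei, and all of these ranges overlapped. Its changes were 0.054 ± 0.13 (edgeR adjusted p = 0.77) in cytoplasm and 0.39 ± 0.13 (edgeR adjusted p = 0.011) in nuclei. The nuclear call of PSAE1 was lost with DESeq2's size factors (0.29, adjusted p = 0.0537 by edgeR), with library totals (0.24, adjusted p = 0.0858 by edgeR) and without replicate 6 (0.31, adjusted p = 0.0547 by edgeR). In tho5ab PSAE1 had 1844 to 2912 CPM (median 2000.3) and 1967 to 3811 CPM (median 2787) in cytoplasm and 53.8 to 76.7 CPM (median 65.5) and 62.04 to 95.9 CPM (median 74.7) in nuclei, also overlapping, and its cytoplasmic rise of 0.42 ± 0.13 (edgeR adjusted p = 0.0071) turned to -0.16 with library totals. That rise also lost its call with DESeq2's size factors, in the 32 libraries alone, without replicate 2 and with only the groups compared. Of the subunits where light-harvesting trimers dock, PSAL, PSAO, PSAH1 and PSAH2, PSAO fell in Col-0 cytoplasm (-0.46 ± 0.12) and PSAH2 rose in Col-0 nuclei (0.40 ± 0.13). PSAF fell in Col-0 cytoplasm (-0.35 ± 0.13), as did PSAG (-0.60 ± 0.14) and PSAK (-0.70 ± 0.14). PSAG overlaps AT1G55673 on the other strand by 479 bases, which had a mean of 2205 CPM in Col-0 cytoplasm at 21 °C. PSAE1, PSAE2 and PSAN are uncertain as well. PSAE1 overlaps AT4G28755 on the other strand by 436 bases, which had means of 580 and 202 CPM in Col-0 cytoplasm at 21 and 37 °C. PSAE2 overlaps AT2G20270 by 63 bases and PSAN overlaps AT5G64030 by 39, both on the other strand.

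The oxygen-evolving proteins sit on the lumen side of photosystem II and protect the manganese cluster that splits water. PSBP1 and PSBQ2 fell in cytoplasm and rose in nuclei of both genotypes, though the tho5ab calls of PSBP1 and the nuclear one of PSBQ2 depended on the setting, and PSBQ1 was called in no heat comparison. PSBQ2 (AT4G05180, chr4:2671523-2673243 on the minus strand) had 1844 to 2865 CPM (median 2182) and 865 to 1307 CPM (median 1087) in Col-0 cytoplasm, and 58.2 to 87.7 CPM (median 67.4) and 102 to 119 CPM (median 108) in Col-0 nuclei. Neither pair overlapped, and the changes were -1.06 ± 0.14 (edgeR adjusted p = 2.5e-08) and 0.66 ± 0.14 (edgeR adjusted p = 1.3e-04). In tho5ab it had 1077 to 1892 CPM (median 1325) and 504 to 1052 CPM (median 789) in cytoplasm and 30.4 to 44.95 CPM (median 38.1) and 51.03 to 62.1 CPM (median 56.7) in nuclei, again without overlap, and its nuclear rise there was 0.20 with library totals (adjusted p = 0.183 by edgeR). PSBP1 (AT1G06680, chr1:2047634-2049439 on the plus strand) had 7084 to 9901 CPM (median 8574) and 4753 to 5838 CPM (median 5162) in Col-0 cytoplasm, and 222 to 288 CPM (median 256) and 396 to 519 CPM (median 449) in Col-0 nuclei, without overlap. Its changes were -0.69 ± 0.13 (edgeR adjusted p = 1.2e-05) and 0.83 ± 0.13 (edgeR adjusted p = 3.8e-07). PSBP1 is uncertain, as it overlaps AT1G06690 on the other strand by 40 bases and AT1G06670 on its own strand by 22. In tho5ab PSBP1 had 5463 to 6790.0 CPM (median 6327) and 2812 to 6209.5 CPM (median 5061) in cytoplasm and 185 to 286 CPM (median 230.3) and 238 to 377 CPM (median 321) in nuclei, both with overlap. Its nuclear rise there, 0.40 ± 0.13 (edgeR adjusted p = 0.0062), was 0.23 with DESeq2's size factors (adjusted p = 0.131 by edgeR) and 0.018 with library totals (adjusted p = 0.893 by edgeR). PSBP1's fall in tho5ab cytoplasm lost its call under 6 alternatives, at -0.27 in the 32 libraries alone (adjusted p = 0.236 by edgeR), at -0.34, -0.30 and -0.35 without replicates 1, 5 and 6 (adjusted p = 0.0574, 0.101 and 0.0515 by edgeR), at -0.31 with the covariate for high opposite-strand counts (adjusted p = 0.0536 by edgeR) and at -0.22 without both replicate 7 libraries of heated tho5ab (adjusted p = 0.0921 by edgeR). PSBQ1 (AT4G21280, chr4:11334352-11335815 on the plus strand) had 715 to 1074 CPM (median 759) and 700.2 to 933 CPM (median 779) in Col-0 cytoplasm and 49.4 to 67.4 CPM (median 54.7) and 46.1 to 55.9 CPM (median 51.1) in Col-0 nuclei. These ranges overlapped and neither change passed, with the fractions differing by -0.14 ± 0.20 (edgeR adjusted p = 0.69). In tho5ab PSBQ1 had 484 to 983 CPM (median 551) and 556 to 1019.7 CPM (median 671) in cytoplasm and 43.3 to 57.2 CPM (median 49.7) and 43.8 to 65.4 CPM (median 55) in nuclei, which overlapped as well. Of the PSBO pair, PSBO1 fell in Col-0 cytoplasm (-0.85 ± 0.13), while PSBO2 was at 0.16 ± 0.14 there, short of the test, and rose in tho5ab cytoplasm by 0.54 ± 0.14, which turned to -0.063 with library totals. That rise also lost its call with only the groups compared (0.38, adjusted p = 0.118 by edgeR). PSBO2 rose in tho5ab nuclei too, with 112 to 162 CPM at 21 °C and 141 to 232 CPM at 37 °C, which overlapped.

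Among the other genes of photosystem II, PSBR (AT1G79040, chr1:29735952-29737009 on the plus strand), a small lumen protein needed for PSBP to attach, was the member that rose in both fractions of both genotypes. It had 8169 to 10215 CPM (median 8703) and 10418 to 13528 CPM (median 12035) in Col-0 cytoplasm, and 177 to 207 CPM (median 189.7) and 222 to 326 CPM (median 269) in Col-0 nuclei. The heated libraries were higher without overlap in both fractions, at 0.41 ± 0.12 (edgeR adjusted p = 0.0032) and 0.53 ± 0.12 (edgeR adjusted p = 1.8e-04). The tho5ab libraries had 6209.7 to 8894 CPM (median 7569) and 7248 to 14031 CPM (median 12566) in cytoplasm, with overlap, and 135 to 186 CPM (median 145) and 186 to 253 CPM (median 226) in nuclei, without. The cytoplasmic rises lost their call with other scalings, at 0.23 with DESeq2's size factors in Col-0 (adjusted p = 0.0828 by edgeR) and 0.054 with library totals in tho5ab. The rise in Col-0 cytoplasm also lost its call with only the groups compared (0.215, adjusted p = 0.137 by edgeR) and with DESeq2's Wald test. PSBR is uncertain, as it overlaps AT1G79050 on the other strand by 51 bases. PSBX (AT2G06520, chr2:2587729-2588448 on the minus strand), a small membrane subunit, had 1804 to 4734 CPM (median 3034) and 876 to 1531 CPM (median 1391) in Col-0 cytoplasm, without overlap, and 26.3 to 61.9 CPM (median 36.3) and 27.96 to 39.4 CPM (median 34.4) in Col-0 nuclei, with overlap. It fell in the cytoplasm at -1.24 ± 0.23 (edgeR adjusted p = 1.2e-05), against -0.19 ± 0.23 in nuclei. In tho5ab PSBX had 1791 to 5199 CPM (median 2297) and 1196 to 2662 CPM (median 1564) in cytoplasm and 21.9 to 55.6 CPM (median 40.96) and 36.3 to 50.3 CPM (median 43.6) in nuclei, with overlap, and its cytoplasmic fall of 0.67 ± 0.22 lost its call without replicate 5 (-0.28, adjusted p = 0.332 by edgeR). PSBTN (AT3G21055, chr3:7376432-7377226 on the minus strand), a small lumen subunit, had 2667 to 3619 CPM (median 2905) and 1235 to 1592 CPM (median 1491) in Col-0 cytoplasm, without overlap, and 114 to 140.4 CPM (median 124) and 82.5 to 140.0 CPM (median 114) in Col-0 nuclei, with overlap. Its changes were -1.10 ± 0.15 (edgeR adjusted p = 5.2e-08) and -0.15 ± 0.15 (edgeR adjusted p = 0.43). In tho5ab PSBTN had 2017 to 3408 CPM (median 2396) and 939 to 2099 CPM (median 1545) in cytoplasm and 145 to 246 CPM (median 177) and 84.1 to 118 CPM (median 109) in nuclei, where it fell without overlap, at -0.85 ± 0.15 (edgeR adjusted p = 6.7e-06). PSBW (AT2G30570, chr2:13019028-13020311 on the minus strand), which stabilises photosystem II with its antenna, had 1274 to 1893 CPM (median 1519) and 1404 to 1763 CPM (median 1598) in Col-0 cytoplasm and 39.1 to 70.5 CPM (median 57.02) and 53.1 to 65.4 CPM (median 55.1) in Col-0 nuclei, all overlapping. In tho5ab PSBW had 880.3 to 1339 CPM (median 1154) and 1154 to 1615 CPM (median 1448) in cytoplasm and 24.4 to 38.9 CPM (median 31.3) and 28.1 to 37.03 CPM (median 32.1) in nuclei, overlapping too, and its cytoplasmic rise of 0.34 ± 0.13 turned to -0.22 with library totals. That rise also lost its call with DESeq2's size factors, with its Wald test and with only the groups compared. The same held in the 32 libraries alone and without replicate 1, 2 or 4. PSBS, which triggers the harmless release of excess light energy as heat, fell in the cytoplasm of Col-0 (-0.64 ± 0.16) and in tho5ab nuclei (-0.66 ± 0.16), and PSBY fell in tho5ab nuclei (-0.57 ± 0.14).

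Set against Col-0, tho5ab had lower levels of most members in the nuclei and of few in the cytoplasm. In cytoplasm at 21 °C 8 of 41 were lower and 0 higher (median -0.29), where 1.97% of all tested genes were lower and 1.61% higher (median 0.0013). They were LHCA5, LHCB2.3, LHCB5, PSAE1, PSAN (-0.75 ± 0.14, edgeR adjusted p = 9.5e-04), PSBP1, PSBQ2 and PSBW, and none of the 8 passed in the 32 libraries without high opposite-strand counts alone. Without replicate 1, replicate 2 or replicate 4 the count was 3, and without replicate 3 it was 5. In cytoplasm at 37 °C 4 were higher and 2 lower (median 0.052; background 6.37% and 7.71%, with a median of -0.060), namely LHCB1.1 (0.74 ± 0.20), LHCB1.3, LHCB1.5 and PSBO2 against LHCA5 and PSBQ2. With library totals the split was 0 higher and 18 lower, and with both replicate 7 libraries of heated tho5ab left out it was 11 higher and 1 lower, while without replicates 1, 2, 4 or 6 at most 1 was higher. In nuclei at 21 °C 24 were lower and 3 higher (median -0.45), where 8.8% of all tested genes were lower and 12.7% higher (median -0.026). In nuclei at 37 °C 24 were lower and 2 higher (median -0.45), where 15.9% were lower and 18.5% higher (median -0.079). The same 20 members were lower at both temperatures. The 32 libraries alone gave 16 lower and 1 higher at 21 °C, and 21 lower and 2 higher at 37 °C.

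Each role had genes with lower nuclear levels in tho5ab, though in unlike shares, and some genes were higher. At 21 °C 4 of 6 genes of the photosystem I antenna, 9 of 14 of the photosystem II antenna, 7 of 10 of the photosystem I core, 1 of 5 oxygen-evolving and 3 of 6 other genes were lower. At 37 °C these counts were 5, 7, 7, 2 and 3. LHCA4 was at 836 to 1268 CPM (median 1013) in Col-0 nuclei and 289.5 to 387 CPM (median 322) in tho5ab nuclei at 37 °C, with every tho5ab library below every Col-0 library. This was the lowest value of the 41, -1.65 ± 0.15 (edgeR adjusted p = 4.4e-13) or 3.14-fold lower, and at 21 °C it was -0.73 ± 0.15 (edgeR adjusted p = 1.5e-04). LHCA5 and PSAE2 followed at 37 °C at -1.36 ± 0.18 and -1.35 ± 0.20. At 21 °C LHCB5 (-1.19 ± 0.18, edgeR adjusted p = 9.5e-07), LHCB1.4 (-1.19 ± 0.21) and PSAN (-1.11 ± 0.15) were lowest. Higher in tho5ab nuclei at 21 °C were PSBY (1.01 ± 0.14, edgeR adjusted p = 3.8e-07), PSBTN (0.57 ± 0.15, edgeR adjusted p = 0.0043) and PSBO2 (0.47 ± 0.14, edgeR adjusted p = 0.0099), of which the last 2 lost their call without replicate 1 (0.47 and 0.41, adjusted p = 0.0545 and 0.0704 by edgeR). PSBO2 (0.60 ± 0.14) and LHCB1.1 (0.70 ± 0.20) were higher at 37 °C, the latter not with library totals (0.39, adjusted p = 0.0584 by edgeR). The guard cell markers, 4 of 4 detected, summed to 205 to 445 CPM in tho5ab nuclei and 117 to 172 CPM in Col-0 nuclei at 21 °C, and to 170 to 234 and 67.8 to 119 CPM at 37 °C. The phloem markers, 4 of 4 detected, summed to 103 to 113 CPM in tho5ab and 115 to 182 CPM in Col-0 at 21 °C. By single markers, 1 of 3 tested guard cell markers was higher and 0 lower at each temperature. Of the 4 phloem markers 2 were lower at 21 °C and 1 at 37 °C, and 0 were higher. The sums can therefore rest on single genes. The part of the cell mixture in these differences was not tested.

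Members with and without introns were counted apart, since export of spliced and unspliced mRNA is known to involve partly different adaptors. The 9 intronless members are the 5 LHCB1 genes, PSAG, PSBX, PSBY and PSBTN. At 21 °C 2 of the 9 were higher and 2 lower (median 0.027), while of the 32 with introns 1 was higher and 22 lower (median -0.57). At 37 °C the intronless members had 1 higher and 0 lower (median 0.14), and those with introns 1 higher and 24 lower (median -0.63). Over all tested genes the 2534 without introns had 867 higher and 22 lower at 21 °C (median 0.70), and the 15447 with introns had 1416 higher and 1561 lower (median -0.11). At 37 °C the intronless genes had 919 higher and 56 lower (median 0.54), against 2416 and 2802 (median -0.15). Spearman's correlation of the number of introns with the genotype change across the 41 genes was -0.30 at 21 °C and -0.54 at 37 °C, as a description over genes of the same libraries. The intronless members also include the near-identical LHCB1 copies, so the classes differ in more than introns. For comparison, PSAD1 and PSAD2, intronless genes of another photosystem I subunit outside the 41, were higher in tho5ab nuclei at 21 °C by 1.16 ± 0.16 and 1.02 ± 0.16 and at 37 °C by 1.77 ± 0.16 and 1.86 ± 0.17.

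**Figure D5:**
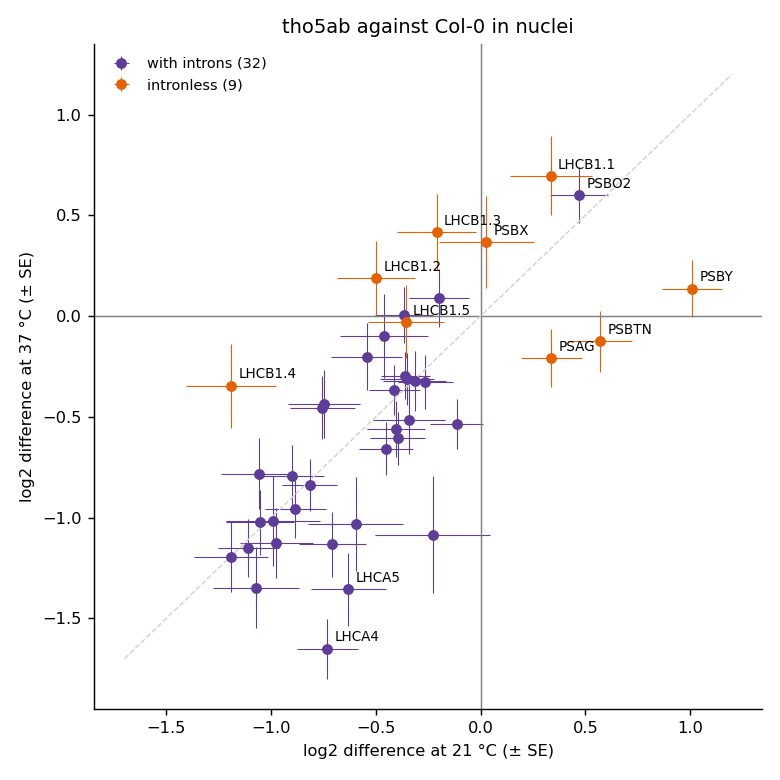
Log2 difference between tho5ab and Col-0 nuclei at 21 °C (horizontal axis) and 37 °C (vertical axis), 1 point per gene with standard errors; purple marks the 32 members with introns, orange the 9 without, and the dashed line equal values. LHCA4 lies lowest at -1.65, PSBY lies farthest to the right at 1.01, and the other intronless genes lie on both sides of 0.

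Whether heat acted differently in the genotypes was tested as an interaction. In the cytoplasm 0 of 41 differed by edgeR, where 1.84% of all tested genes were positive and 2.19% negative. The unadjusted p was under 0.05 for 12, all of them with a positive difference, tho5ab minus Col-0, and DESeq2's Wald test called 3. The edgeR count of 0 became 11 without replicate 7, 3 without replicate 5 and 8 with both replicate 7 libraries of heated tho5ab left out. In the nuclei 2 differed, both lower in tho5ab (background 1.18% lower and 2.51% higher), LHCA4 at -0.92 ± 0.21 (edgeR adjusted p = 0.0035) and PSBY at -0.87 ± 0.20 (edgeR adjusted p = 0.0048). In the 32 libraries alone these were -0.85 (adjusted p = 0.0699 by edgeR) and -0.70 (adjusted p = 0.218 by edgeR). The genotype difference also differed between the fractions at 37 °C, where 16 members were lower in nuclei relative to cytoplasm and 0 higher (background 4.81% and 9.88%), with LHCA4 at -1.51 ± 0.21 (edgeR adjusted p = 1.8e-07). That count was 10, 9 and 6 without replicates 1, 2 and 4. At 21 °C 3 were higher (PSAG, PSBY and PSBTN) and 3 lower (LHCB1.4, LHCB6 and PSAL; background 4.5% and 1.9%), 3 and 8 with library totals, and 0 of these calls were made without replicate 1.

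Counting could have mixed 22 of the 41 genes with a neighbour or a copy, 16 of them by an overlapping gene and 8 by shared stretches of 50 bases. Among the 22, 15 rose and 0 fell in Col-0 nuclei (median 0.56). Among the 19 others 5 rose and 2 fell (median 0.042), a share of rises close to the 21.9% of all tested genes. The nuclear rises thus lay mostly in genes whose counting is uncertain, but most of the 22 are also antenna genes. Of the antenna genes among the 19, LHCA1, LHCA3, LHCB4.1 and LHCB5 rose and LHCA6 and LHCB4.3 fell in Col-0 nuclei. The part of counting in the nuclear rise was not tested. In Col-0 cytoplasm 16 of the 22 and 12 of the 19 fell (19.7% of all tested genes), and the difference between the fractions' heat changes was positive for 18 of the 22 and 10 of the 19 (7.37%). The level at 21 °C in Col-0 cytoplasm and the heat change in Col-0 nuclei had a Spearman correlation of 0.43 across the 41 genes, which come from the same libraries. The members' exons were shorter than those of other tested genes, with medians of 1223 and 1834 bases.

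Genes that make, place and drive the same apparatus were looked at as lists, whose counts stand against the shares and medians of all tested genes given above for the same comparisons. Of 15 genes of chlorophyll synthesis, 11 fell and 3 rose in Col-0 cytoplasm and 9 rose and 1 fell in Col-0 nuclei, and in tho5ab 8 fell and 3 rose in cytoplasm and 8 rose and 3 fell in nuclei. Their median changes were -0.64 and 0.53 in Col-0 and -0.54 and 0.42 in tho5ab. GUN4, which activates the first step toward chlorophyll, rose in Col-0 cytoplasm (2.04 ± 0.19, edgeR adjusted p = 2.8e-13), while CHLG, which adds the phytol tail, fell (-1.44 ± 0.16, edgeR adjusted p = 1.1e-10), as did PORA, the enzyme of the light-dependent step in seedlings (-2.81 ± 0.86, edgeR adjusted p = 0.0063). CHL27, a cyclase subunit, rose in Col-0 nuclei by 1.29 ± 0.13, and DVR, a reductase, fell there by 1.34 ± 0.22. Of 12 genes of electron transport and the ATP synthase 6 fell and 3 rose in Col-0 cytoplasm (median -0.41) and 6 rose and 2 fell in the nuclei (median 0.32). Ferredoxin FD1 rose in the cytoplasm (2.48 ± 0.19, edgeR adjusted p = 1.2e-15) and the reductases LFNR1 and LFNR2 fell (-1.77 ± 0.17 and -1.47 ± 0.15). Of 7 genes listed as regulators of photosynthesis genes, 2 rose and 2 fell in Col-0 cytoplasm (median 0.42). In Col-0 nuclei 0 rose and 3 fell (median -0.40), among them GLK1, an activator of antenna genes (-0.82 ± 0.17, edgeR adjusted p = 7.4e-05). The listed genes are for transcription factors except GUN1, a chloroplast protein. GUN1 had no call in either fraction of Col-0, and its own value was the median in the cytoplasm. Of 7 relatives of the antenna proteins 2 rose and 2 fell in Col-0 cytoplasm (median 0.023), and ELIP1, which binds chlorophyll under stress, rose most (3.92 ± 0.23, edgeR adjusted p = 2.7e-20). Of 8 genes for import, assembly and phosphorylation of antenna proteins 1 rose and 2 fell in Col-0 cytoplasm (median -0.0069). In Col-0 nuclei 2 rose and 1 fell (median 0.17). CPSRP54, a chloroplast signal recognition particle protein, was at -1.02 ± 0.19 in cytoplasm and 0.52 ± 0.18 in nuclei. The nuclear fall was that of TAP38, a phosphatase (-0.63 ± 0.18, edgeR adjusted p = 0.0035), not of a gene for import or assembly. Of 7 genes of chlorophyll breakdown 1 rose and 2 fell in Col-0 cytoplasm (median -0.19), where SGR2 was lowest (-1.74 ± 0.65), and 2 rose and 1 fell in Col-0 nuclei (median 0.10), where NYC1, an enzyme of chlorophyll b breakdown, fell by 0.98 ± 0.13. In tho5ab against Col-0 nuclei the chlorophyll synthesis genes split 4 higher and 3 lower at 21 °C and 4 and 4 at 37 °C, and the electron transport genes 3 and 5, then 3 and 7.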

How the data were processed

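RNA of nuclei and of cytoplasm from Arabidopsis thaliana rosettes was measured in 8 groups of 6 libraries. Per the labels' protocols, RNeasy Plant Mini columns were used for RNA, ERCC RNA was spiked in, and NuGEN Universal Plus RNA-Seq libraries were prepared after rRNA depletion. Per the submitters' processing notes, STAR 2.7.8a, Picard, UMI-tools, featureCounts and TAIR10 were used; how strand and multiple alignments were handled is not given in the sources used here. The deposited table holds the authors' raw counts per gene, with 1 column per library and 0 columns of no sample.

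From these counts edgeR 4.0.16 (R 4.3.3) was fitted over all 48 libraries with 1 mean per group, TMM scaling, filterByExpr (17981 genes kept) and its quasi-likelihood F test, with Benjamini-Hochberg adjustment over all kept genes in each of 18 comparisons and a threshold of 0.05. A standard error is the log2 change divided by the square root of F, an approximation. The script was tested on simulated data. For heat in Col-0 cytoplasm it recovered 54 of 100 changes of 2-fold and 97 of 100 of 4-fold. A gene without a call is therefore not shown to be unchanged. Groups came from the sample labels, and no library was left out of the fit. Genes given with values in every group were, per role, up to 2 with the highest and 1 with the lowest difference between the fractions' heat changes in Col-0, among those with a mean log2 CPM of at least 3. In addition, up to 3 with the highest and 3 with the lowest changes among those called in each other comparison were named, as were genes called against their role group; of each pathway list, up to 2 of each were named. LHCB1.3 and PSBR were added to those with values in every group after their values were seen. Alternatives were DESeq2 1.42.0's size factors and Wald test, library totals, no filter, only the groups compared, a replicate block, a covariate for the 16 libraries with high opposite-strand counts, the other 32 alone, and each replicate number left out. The 16 libraries were set by a median log2 ratio of nested to host genes above -5 over 80 gene pairs with hosts of at least 50 CPM, a limit chosen after the values were seen. Leaving out the tho5ab libraries of replicate 7 at 37 °C was also chosen after seeing the data. Sequences, introns and overlaps are from RefSeq's TAIR10.1, whose identifiers matched all 41 genes. The members and lists were chosen with earlier results of these data known, so no list is independent support.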

Additional observations from a re-analysis of the deposited data

Results flagged for a closer look

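Of 144 groups of 6 libraries checked, over the 17 genes given in every group and the share of counts of all members, 11 had a library far from the other 5 by Dixon's criterion at 95%, which chance gives in about 1 in 20 groups. The tho5ab cytoplasmic library of replicate 5 at 21 °C accounts for 4 of the 11. In that library PSAE2 stood at 1860 CPM, PSAE1 at 2910 CPM, PSBQ1 at 983 CPM and PSBX at 5200 CPM. In Col-0 nuclei at 37 °C the library of replicate 6 held 47.8 CPM of PSAE2 and 148 CPM of PSAE1, and that of replicate 1 held 439 CPM of LHCB1.3, the lowest of its group. In tho5ab nuclei at 37 °C PSAN stood at 12.5 CPM in replicate 2 and PSAE2 at 9.28 CPM in replicate 4. In Col-0 cytoplasm at 21 °C PSBQ1 stood at 1070 CPM in replicate 3, and in tho5ab nuclei at 21 °C PSBR stood at 186 CPM in replicate 2.

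The heat change in nuclei differed between the genotypes, by the interaction term of edgeR, for LHCA4 (-0.92) and PSBY (-0.87), both lower in tho5ab. LHCA4 rose in the nuclei of both genotypes, and PSBY fell in tho5ab nuclei with no call in Col-0 nuclei.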

How the results depend on the processing

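Of 2304 combinations of 144 single results and 16 alternatives, 2164 kept direction and call, 128 lost the call, 8 gained it and 4 reversed, and 281 of 320 counts stayed within 1.5 times. The reversals came with library totals in tho5ab cytoplasm under heat: PSAE1 -0.16, PSBO2 -0.063, PSBQ1 -0.38 and PSBW -0.22. The heat calls of LHCA4, LHCB1.3 and LHCB2.3 held under all alternatives run. With library totals, counts were 36 for heat in tho5ab cytoplasm (21), 18 for genotype in cytoplasm at 37 °C (6), 7 for heat by genotype in nuclei (2) and 11 for genotype by fraction at 21 °C (6), where the value in parentheses is that of the report. The 32 libraries alone, a smaller set, gave 0 for genotype in cytoplasm at 21 °C (8), 17 in nuclei at 21 °C (27), 1 in cytoplasm at 37 °C (6), 0 for heat by genotype in nuclei and 0 for genotype by fraction at 21 °C. With only the groups compared, counts were 2 for genotype in cytoplasm at 21 °C, 8 for heat by genotype in nuclei and 23 for opposite heat changes in Col-0 (14). For heat by genotype in cytoplasm (0), size factors, the covariate and the replicate block each gave 2 and the Wald test 3; the Wald test also gave 5 for the nuclei and 27 for genotype by fraction at 37 °C (16). Dropping both replicate 7 libraries of heated tho5ab, chosen after seeing the data, gave for genotype in cytoplasm at 37 °C 12 and for heat by genotype in cytoplasm 8. Leaving out each replicate gave 16 to 21 for heat in tho5ab cytoplasm, 3 to 10 for genotype in cytoplasm at 21 °C, 1 to 12 at 37 °C, 0 to 11 for heat by genotype in cytoplasm, 0 to 6 and 6 to 22 for genotype by fraction at 21 and 37 °C, 10 to 20 for opposite changes in Col-0 and 5 to 8 in tho5ab. Apart from those that use fewer libraries, the cause was not tested. Whether equal replicate numbers mark paired libraries is not stated by the labels, though both fractions of a genotype and temperature carry the same numbers. Over 66 same-numbered pairs correlations ran from -0.53 to 0.61, 24 were over 0.1, and in 0 comparisons were all. These correlations cannot show whether the libraries were paired. The main fit treated all libraries as unpaired, also between fractions. With the replicate block, PSAL in genotype by fraction at 21 °C (-0.78, edgeR adjusted p = 0.0511) and PSBQ2 in genotype in cytoplasm at 37 °C (-0.42, edgeR adjusted p = 0.0501) lost their call, and the other 142 of 144 single results were unchanged. Depth limits mainly LHCB4.3, with 99 to 452 counts per group.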
